A study of Haemaphysalis flava with 2 samples.

Results

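Iron and heme genes were examined in midguts of Haemaphysalis flava, a hard tick, in a library of fully engorged ticks (FE) and a library of partially engorged ticks (PE). The members were the unigenes (assembled transcripts or fragments of them) whose deposited protein description names ferritin, transferrin, a heme-binding protein, heme oxygenase, ferrochelatase, an iron regulatory protein, frataxin, iron-sulfur cluster assembly, mitoferrin, aminolevulinate, a porphyrin or the feline leukemia virus receptor family. The description came from the Nr database, or from UniProt where Nr gave none, and hemelipoglycoproteins, vitellogenins and aspartic proteases were left out. This gave 10 unigenes of the 65535 in the expression table. The 10 were 1 ferritin, 4 unigenes described as transferrin receptor, 2 ferrochelatases and 3 proteins of iron-sulfur cluster assembly.

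The labels describe midgut tissue in both groups, which differ in how far the ticks had fed. The dissections numbered 60 midguts, 30 for each state. The sources used here do not say how many went into each library, nor the age, sex or host of the ticks. With 1 library per state there is no spread between replicates, so no difference below was tested, and intervals are 95% exact counting intervals that cover counting error only.

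Ticks take all their iron and heme from host blood digested inside midgut cells. Ferritin cages store iron in a form that does no harm, and a secreted tick ferritin carries iron out of the gut, as shown in Ixodes ricinus. Ticks have lost most enzymes of heme synthesis and depend on host heme, but the castor bean tick keeps the last steps, which end with ferrochelatase. Mitochondria build iron-sulfur clusters, the cofactors of respiratory enzymes, on a scaffold protein served by frataxin and by a chaperone pair.

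The FE library held 35944321 listed reads and the PE library 43831353, which is 86.8% and 87.0% of the library totals implied by the deposited values. Levels are RPKM (reads per unigene, scaled to its length and to the library's total), so they can be compared between unigenes. Calls of higher or lower in FE were made where the log2 of (FE RPKM + 1)/(PE RPKM + 1) was at least 1 or at most -1, the interval of the read ratio lay on the same side of 1, and a library reached 1 RPKM. Of 44982 unigenes that reached 1 RPKM, 25.7% were called higher in FE and 11.1% lower, and the median log2 ratio was 0.36. Other scalings shift FE against PE by 0.39 on the log2 scale (the trimmed mean of M values, TMM, which centres the bulk of the unigenes).

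All 10 members reached 1 RPKM. By the rule of size 6 were called higher in FE, none lower and 4 neither, against the 25.7% and 11.1% of all unigenes. Their median log2 ratio was 1.56, against 0.36 for all unigenes. The 6 were the 4 transferrin receptor unigenes, frataxin and the co-chaperone HscB. These 6 are not independent genes, since the transferrin receptor unigenes share 1 best-hit protein. With 1 unigene kept per best-hit protein, 3 of 6 were called higher. The summed level of the members was 414 RPKM in FE and 323 RPKM in PE, and without the ferritin it was 288 RPKM in FE and 130 RPKM in PE.

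**Figure D1:**
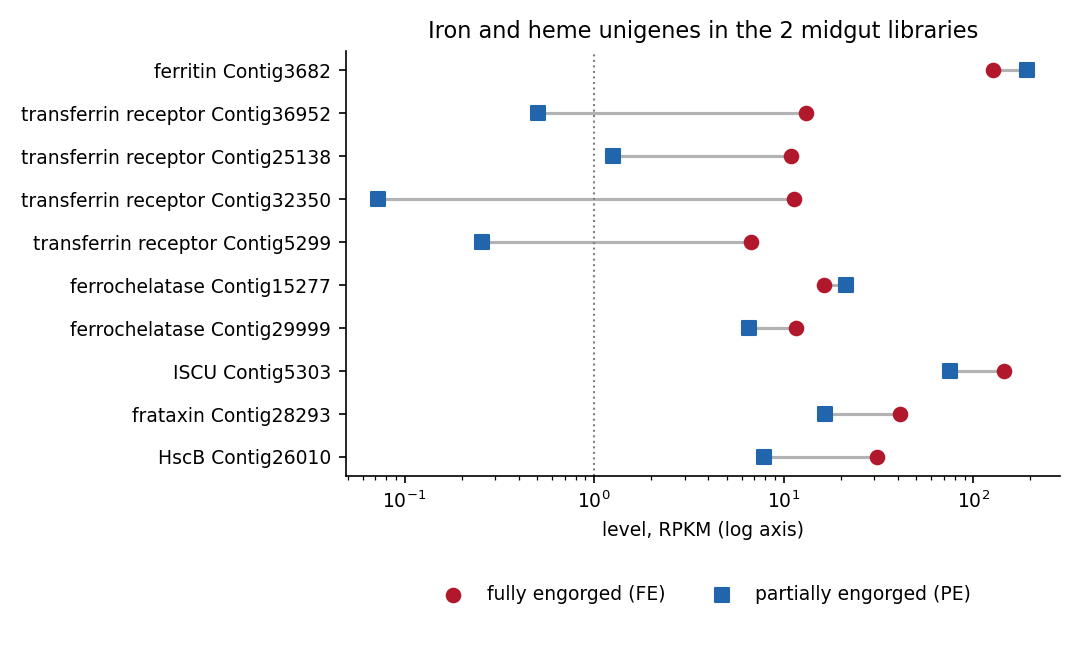
Level of each of the 10 members in RPKM on a log axis, with a circle for the FE library and a square for the PE library. Ferritin Contig3682 and ferrochelatase Contig15277 are the members whose square lies to the right of the circle, and 3 of the transferrin receptor unigenes lie left of the dotted line at 1 RPKM in PE.

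Iron storage was represented by a single abundant unigene, Contig3682, described as ferritin, the shell-forming iron store. It had 10116 reads (127 RPKM) in the FE library, against 18762 reads (193 RPKM) in the PE library. The FE level was thus the lower of the pair, with an FE/PE ratio of 0.656 (0.640 to 0.672). On the log2(RPKM + 1) scale the difference was -0.60, short of the rule. The value was -0.99 with a TMM factor, also short of it, while a 1.5-fold threshold would call it lower in FE. Among unigenes of at least 1 RPKM it stood above 98.1% in FE and 98.5% in PE, so it was among the abundant transcripts of both libraries. Its best UniProt hit was ferritin of Haemaphysalis longicornis under the gene name fer2, with 93.5% identity from residue 1 to residue 199 of its 199. In ticks this name is given to the secreted ferritin. It is 1930 nucleotides long, and its GO terms were cellular iron ion homeostasis, iron ion transport and ferric iron binding.

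The unigenes described as transferrin receptor, the endocytic receptor that brings transferrin-bound iron into vertebrate cells, held the 4 highest ratios of the module. Contig36952 had 666 reads (13.2 RPKM) in FE, against 31 reads (0.505 RPKM) in PE, 26.1-fold higher in FE (18.2 to 38.8). Contig32350 had 513 reads (11.3 RPKM) in FE, against 4 reads (0.0725 RPKM) in PE, 156-fold higher (60.6 to 575). Contig5299 had 366 reads (6.69 RPKM) in FE, against 17 reads (0.255 RPKM) in PE, 26.2-fold higher (16.1 to 45.4). The FE levels of these unigenes were moderate, and the PE levels were under 1 RPKM.

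Contig25138 had 327 reads (10.9 RPKM) in FE, against 46 reads (1.26 RPKM) in PE, 8.65-fold higher in FE (6.34 to 12.0), the smallest ratio among them. On the log2(RPKM + 1) scale the 4 differences ran from 2.40 to 3.52, above 96.2% to 99.2% of all unigenes. With a TMM factor they ran from 2.11 to 3.33, and all 4 calls held. Summed, the transferrin receptor unigenes had 42.1 RPKM in FE and 2.09 RPKM in PE. In these bulk libraries fewer cells of a type and less RNA per cell cannot be told apart.

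**Figure D2:**
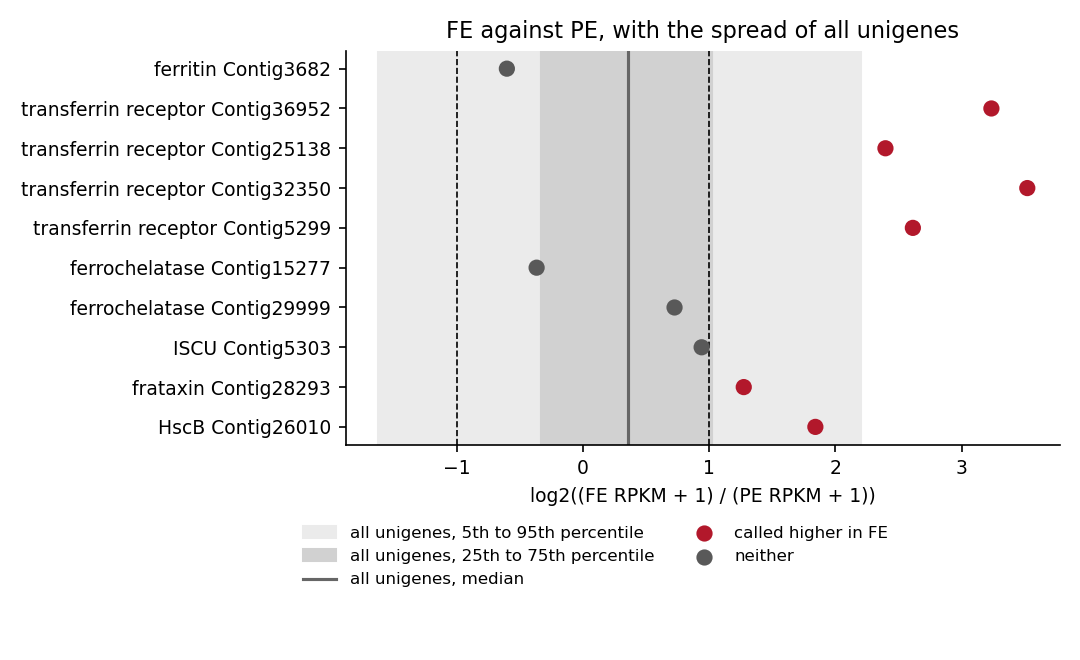
Log2((FE RPKM + 1)/(PE RPKM + 1)) of the 10 members, with red points for those called higher in FE and grey points for those called neither. Dashed lines mark the 2-fold rule, the grey bands and the line give the spread and the median (0.36) of all 44982 unigenes, and the 4 transferrin receptor unigenes lie between 2.40 and 3.52.

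All 4 had the same best hit, a putative transferrin receptor of Ixodes scapularis that is 475 residues long. Contig36952 aligned to residues 1 to 299 with 57.7% identity and Contig32350 to residues 6 to 337 with 66.1% identity. Their alignments share 294 residues of the hit. Contig5299 covered residues 293 to 475 at 66.3% identity, and Contig25138 covered residues 378 to 475 at 77.6%, an overlap of 98 residues. Whether an N-terminal and a C-terminal unigene are pieces of the same transcript was not tested. Whether the counting split reads among similar copies was not tested either. If the unigenes are pieces of the same transcript, their sum counts that transcript more than once. Both the single values and the sum are therefore uncertain.

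**Figure D3:**
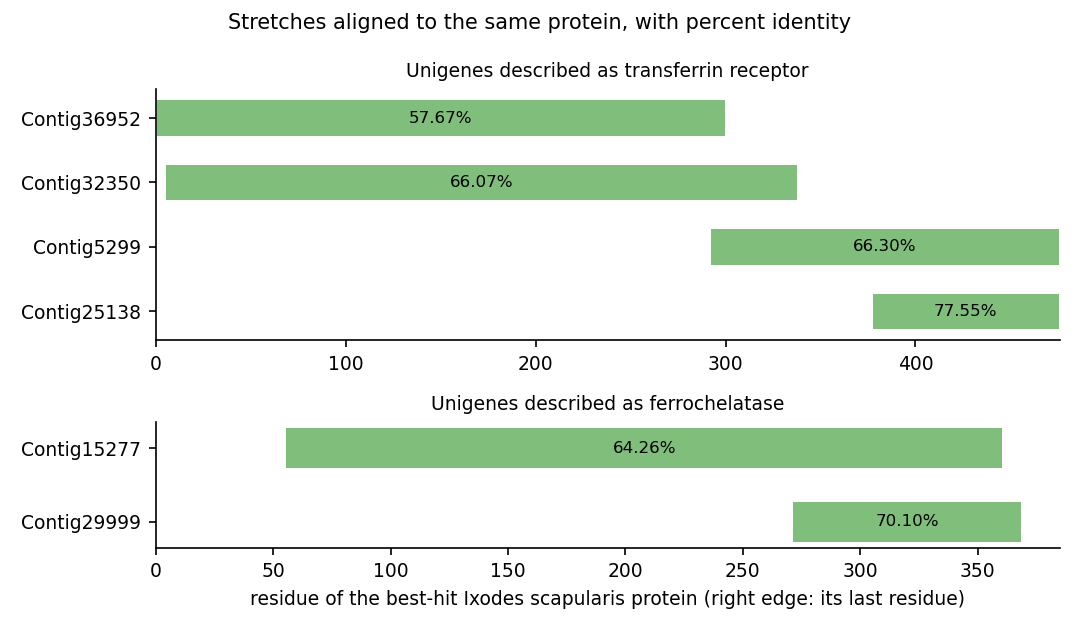
Stretches of the best-hit Ixodes scapularis proteins to which the transferrin receptor and ferrochelatase unigenes align, in residues, with the percent identity written in each bar. Contig36952 and Contig32350 overlap over 294 residues, Contig5299 and Contig25138 over 98, and Contig15277 and Contig29999 over 89.

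The annotation of these unigenes does not settle a role in iron uptake. Each carried the GO terms aminopeptidase activity and proteolysis, and none carried an iron term. The best KOG (eukaryotic orthologous group) hit of 3 of them was the class of transferrin receptors and related proteins with a protease-associated domain, which also takes in glutamate carboxypeptidases, enzymes that trim peptides. Contig25138 had no KOG hit. The other 10 unigenes of that KOG, a comparison picked after the values were seen, were described mainly as glutamate carboxypeptidases or N-acetylated-alpha-linked acidic dipeptidases. Of these 7 reached 1 RPKM and none was called, against 25.7% higher and 11.1% lower among all unigenes, with log2 ratios from -0.26 to 0.86. Their summed level was 44.9 RPKM in FE and 29.7 RPKM in PE. The difference between the members and the rest of the family was not tested.

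Ferrochelatase inserts iron into protoporphyrin to make heme and was represented by 2 unigenes that did not move together. Contig15277 had 881 reads (16.2 RPKM) in FE, against 1403 reads (21.3 RPKM) in PE, with an FE/PE ratio of 0.764 (0.701 to 0.832). Contig29999, a fragment of 301 nucleotides, had 144 reads (11.5 RPKM) in FE, against 100 reads (6.59 RPKM) in PE, with a ratio of 1.75 (1.35 to 2.28). Neither was called, and their intervals lie on opposite sides of 1.

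Their summed level was 27.8 RPKM in FE and 27.9 RPKM in PE. Whether the ferrochelatase unigenes are pieces of the same transcript was not tested. If they are, the sum counts that transcript more than once. Both had the same ferrochelatase of Ixodes scapularis as best hit. Contig15277 aligned to residues 56 to 360 at 64.3% identity and Contig29999 to residues 272 to 368 at 70.1%, with 89 residues in common. Both carried the GO term heme biosynthetic process, and no other unigene of the expression table did. A protoporphyrinogen oxidase-like unigene and a coproporphyrinogen oxidase unigene, of the steps just before ferrochelatase, are named in the annotation but lie outside the expression table and were not analysed here.

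Iron-sulfur cluster assembly had 3 members, of which 2 were called higher in FE, against 25.7% of all unigenes. ISCU, the scaffold on which clusters are built (Contig5303), had 4570 reads (146 RPKM) in FE, against 2880 reads (75.4 RPKM) in PE, and an FE/PE ratio of 1.93 (1.84 to 2.02). It was the most abundant member in FE and lay just under the rule, at a log2 difference of 0.94. Frataxin (Contig28293), an iron-binding partner of the scaffold, had 745 reads (41.3 RPKM) in FE, against 362 reads (16.5 RPKM) in PE, 2.50-fold higher in FE (2.20 to 2.85). HscB (Contig26010), the co-chaperone that helps clusters leave the scaffold, had 1829 reads (30.9 RPKM) in FE, against 569 reads (7.91 RPKM) in PE, 3.91-fold higher in FE (3.56 to 4.30). Each of the 3 was higher in FE than in PE, and their order by level was the same in both libraries.

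The summed level of the 3 was 218 RPKM in FE and 99.8 RPKM in PE. With a TMM factor the log2 differences were 0.55 for ISCU, 0.90 for frataxin and 1.48 for HscB, so that the call of frataxin was lost and only that of HscB held. The names rest on hits of unequal strength. ISCU matched an Amblyomma cajennense protein at 93.3% identity over all 165 residues, and frataxin matched one from the same tick at 83.2% over residues 74 to 192 of 192. The Nr hit of HscB was a predatory mite protein at 41.1% identity, and its UniProt hit, at 70.7%, was an uncharacterized protein.

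The authors' GO term iron-sulfur cluster assembly, taken up after the values were seen, held ISCU, frataxin and 12 unigenes outside the module. Of these 12, 8 were called higher in FE and none lower, against 25.7% and 11.1% of all unigenes, with a median log2 ratio of 1.30 against 0.36. With a TMM factor 4 were higher and none lower, against 18.4% and 16.0% of all unigenes, with a median of 0.92. The 12 may not be separate genes, since several share a description (Isa2, anamorsin or WD-repeat protein). Whether those are copies or pieces of the same transcript was not tested. Contig17439, described as anamorsin, an electron donor of the cytosolic assembly pathway, had 984 reads (67.5 RPKM) in FE, against 39 reads (2.20 RPKM) in PE, 30.7-fold higher in FE (22.3 to 43.4). The other anamorsin unigene, Contig136, had 41.9 RPKM in FE and 27.6 RPKM in PE and was called neither.

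Isa2, which helps form clusters of the larger kind in mitochondria, is the description of 3 unigenes of that term. Contig8629 had 780 reads (28.3 RPKM) in FE, against 74 reads (2.20 RPKM) in PE, 12.8-fold higher in FE (10.1 to 16.5). Contig8630 had 37.9 RPKM in FE and 17.7 RPKM in PE, called higher but not after TMM scaling, and Contig9292 had 24.9 RPKM in FE and 14.9 RPKM in PE. All 12 unigenes and the 3 members had the higher RPKM in FE, as did 63.9% of all unigenes. After TMM scaling 11 of the 12 and the 3 members lay higher in FE, against 49.9% of all unigenes, and NUBP2 (Contig10821) turned to a log2 difference of -0.10, as it did with DESeq2 size factors.

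**Figure D4:**
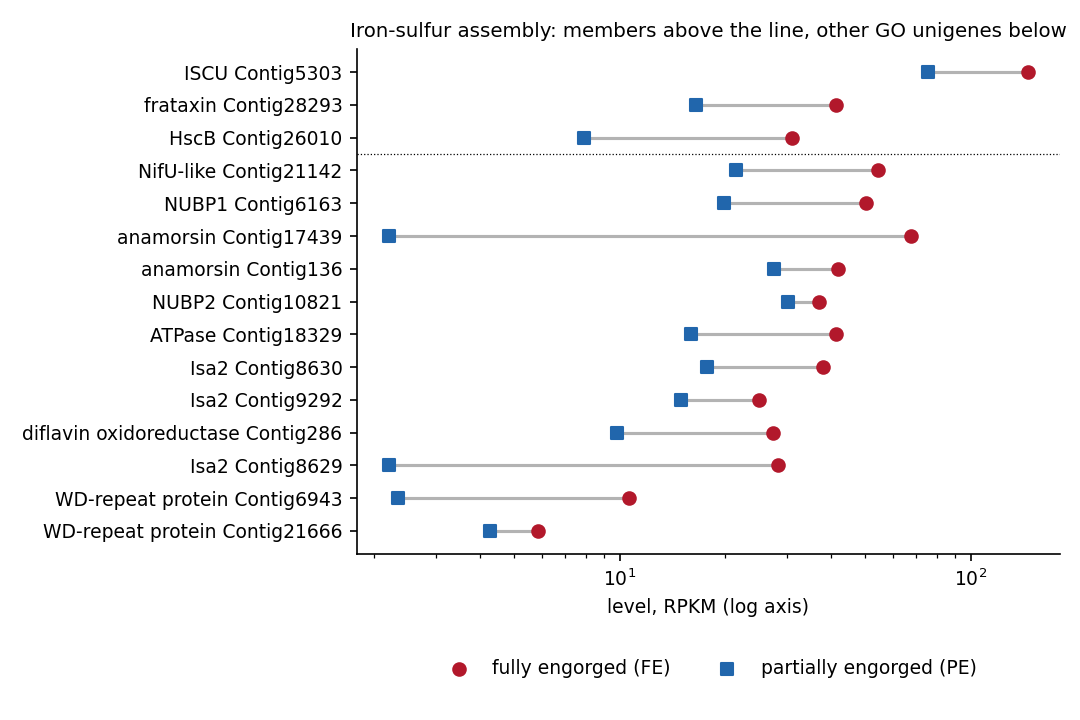
Levels in RPKM on a log axis of the 3 members of iron-sulfur assembly, above the dotted line, and of the 12 unigenes outside the module that carry the GO term, with circles for FE and squares for PE. All 15 circles lie to the right of their squares on the authors' scale, where 63.9% of all unigenes are higher in FE, though NUBP2 Contig10821 turns to -0.10 (log2) after TMM scaling. Anamorsin Contig17439 (67.5 RPKM in FE, 2.20 RPKM in PE) and Isa2 Contig8629 (28.3 RPKM in FE, 2.20 RPKM in PE) are the widest apart.

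No member was found for heme-binding proteins, heme oxygenase, iron regulatory proteins, mitoferrin, aminolevulinate enzymes, the feline leukemia virus receptor family or transferrin itself by the description used. The roles of heme export, heme breakdown and mitochondrial iron import are therefore not described by members. The expression table holds part of the assembled unigenes, so this says nothing about the genome of the tick.

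Unigenes matched by description to a list of other iron and heme genes numbered 40, of which 34 reached 1 RPKM. The matches also take in proteins that bind neither, such as histidine triad proteins and glutathione peroxidases, so the counts below are of matches. Of these 8 were called higher in FE, 2 lower and 24 neither, with a median log2 ratio of 0.30 against 0.36 for all unigenes. With a TMM factor 3 were higher and 5 lower, against 18.4% and 16.0% of all unigenes. A share of 8 in 34 is near the 25.7% of all unigenes.

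Import and reduction genes had 4 unigenes, 2 of them called higher, against 25.7% of all unigenes. With a TMM factor 1 was called higher, against 18.4% of all unigenes. A ferric-chelate reductase (Contig2665), of a family that reduces iron before uptake, was the most abundant at 29.2 RPKM in FE and 18.3 RPKM in PE and was called neither. The metal transporters described as ZIP12-like (Contig19965) and ZIP14-like (Contig2733) were 2.87-fold (2.58 to 3.20) and 2.48-fold (2.14 to 2.86) higher in FE. The call of ZIP14-like was lost with a TMM factor.

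Iron-sulfur cofactor genes had 16 unigenes, of which 4 were called higher and 0 lower, a share near the 25.7% of all unigenes called higher. After TMM scaling 0 were higher and 1 lower, against 18.4% and 16.0% of all unigenes, so none of the higher calls named next held. An adrenodoxin-like protein (Contig16760), a mitochondrial iron-sulfur electron carrier, had 85.5 RPKM in FE and 33.0 RPKM in PE, 2.59-fold higher in FE (2.40 to 2.80). The NUBPL-like unigene (Contig9341), of a family that delivers clusters to respiratory complex I, was 2.21-fold higher in FE (2.05 to 2.39). NUBP1 (Contig6163), a cytosolic assembly factor that also carries the GO term above, was 2.54-fold higher (2.36 to 2.74).

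The most abundant match of that group, Contig2145, with 539 RPKM in FE and 232 RPKM in PE, is a histidine triad protein and not an iron-sulfur protein. It is the remaining one of the 4. Contig3791 of that group is likewise described as a histidine triad protein and was called neither. As examples outside the rule for named genes, cytoplasmic aconitate hydratase, which in animals doubles as an iron regulatory protein when it lacks its cluster, had 93.3 RPKM in FE and 74.4 RPKM in PE (Contig2224). A mitochondrial aconitate hydratase (Contig666) had 79.6 RPKM in FE and 122 RPKM in PE, with a ratio of 0.652 (0.631 to 0.674). Neither was called.

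Sideroflexins and a mitochondrial ABC transporter (3 unigenes) had none called, and neither did the heme a synthesis genes (3 unigenes, 2 of which reached 1 RPKM) or the only heme transport match, a cytochrome b5 domain protein (Contig20667). The most abundant sideroflexin (Contig18652) had 26.1 RPKM in FE and 41.0 RPKM in PE, and it was called lower with a TMM factor. COX15 (Contig19672), which makes heme a, had 24.8 RPKM in FE and 29.5 RPKM in PE. Contig20667 had 22.4 RPKM in FE and 28.0 RPKM in PE. No unigene matched the list of export and oxidation genes.

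**Figure D5:**
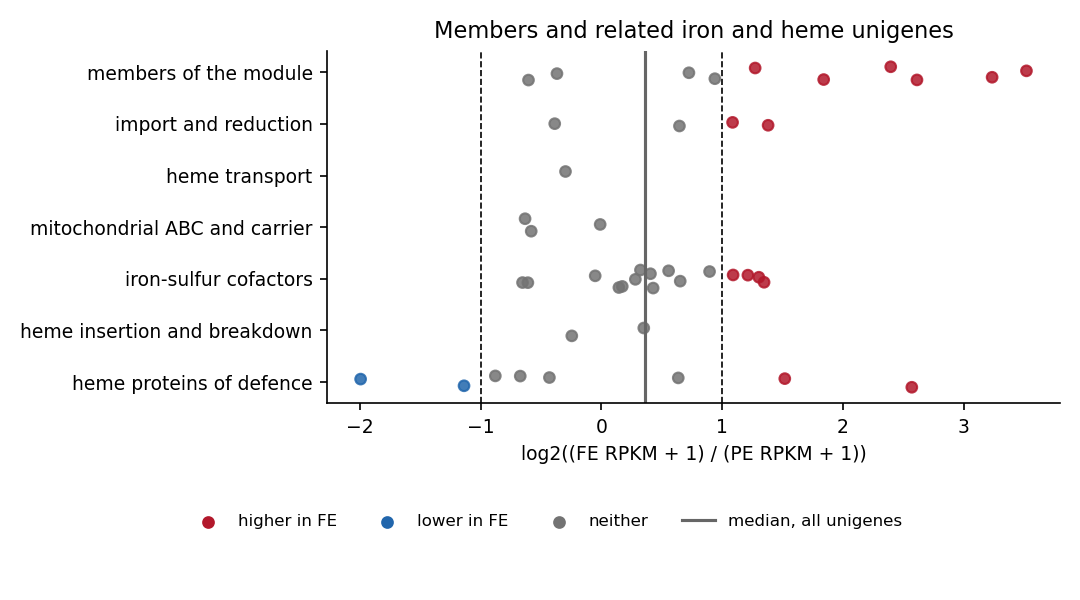
Log2((FE RPKM + 1)/(PE RPKM + 1)) of the 10 members and of the 34 related unigenes that reached 1 RPKM, by group, with red for higher in FE, blue for lower and grey for neither. The 4 points furthest right in the top row are the transferrin receptor unigenes, and the related groups lie on both sides of the median of all unigenes (0.36).

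Catalases and peroxidases, which deal with peroxides, had 13 unigenes, of which 8 reached 1 RPKM. Of these 2 were called higher and 2 lower, against 25.7% and 11.1% of all unigenes. With a TMM factor 9 reached 1 RPKM, 2 were higher and 3 lower, against 18.4% and 16.0% of all unigenes. Most catalases and peroxidases carry heme, but the glutathione peroxidases in this list do not. A glutathione peroxidase (Contig674) was the most abundant, with 785 RPKM in FE and 1730 RPKM in PE, an FE/PE ratio of 0.454 (0.446 to 0.461). A catalase-like unigene (Contig2261) had 94.4 RPKM in FE and 15.1 RPKM in PE, 6.27-fold higher in FE (5.89 to 6.69), and a short catalase-like unigene (Contig25685) had 1.25 RPKM in FE and 7.99 RPKM in PE, an FE/PE ratio of 0.157 (0.0870 to 0.265). These catalase-like unigenes went opposite ways. The other unigene called higher, a peroxidase (First_Contig1728) named outside the rule, had 297 reads (1.91 RPKM) in FE, against 3 reads (0.0159 RPKM) in PE, a read ratio of 120 (40.8 to 587).

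Markers of midgut and of other tissues moved between the libraries. Of 28 midgut markers that reached 1 RPKM 12 were higher in FE and 12 lower, against the 25.7% and 11.1% above, with a summed level of 1025 RPKM in FE and 2563 RPKM in PE over 29. Among them the 2 longipains, digestive proteases, had 519 and 527 reads in FE and 0 reads in PE, and the 3 unigenes of Bm86-like protein, a surface protein of gut cells, summed to 6.09 RPKM in FE and 88.4 RPKM in PE. Of the 4 matches of the ovary list 3 were higher in FE, with sums of 155 RPKM in FE and 50.9 RPKM in PE. The most abundant was vitellogenin receptor First_Contig2458, at 116 RPKM in FE and 38.2 RPKM in PE. Contig8253 and First_Contig1245, also called higher, matched by the word oocyte in the names of zinc finger proteins. Such a name does not make them ovary markers. Only 1 host blood marker matched, a hemoglobin chain of Ixodes scapularis (Contig36286) with 5.36 RPKM in FE and 9.94 RPKM in PE, and no unigene had a best hit in the listed bacteria. Salivary gland (106 unigenes), fat body and hemolymph (18) and muscle (77) lists summed to 6354, 7238 and 3370 RPKM in FE and to 20235, 20044 and 3732 RPKM in PE. Counts did not follow these sums. Of 92 salivary unigenes that reached 1 RPKM 37 were higher in FE and 28 lower, with a median log2 ratio of 0.48. Of 17 fat body and hemolymph unigenes 7 were higher and 7 lower, and of 56 muscle unigenes 10 were higher and 5 lower. The fat body list also takes in the vitellogenin receptor unigenes First_Contig2458 and Contig5844, which the ovary list counts too, so these lists are not separate. The hemocyte list had 12 matches, with 42.1 RPKM in FE and 35.2 RPKM in PE, of which 2 reached 1 RPKM and neither was called. The most abundant, Contig5616, is described as an autophagocytosis-involved protein and matched by part of a word. The sums are therefore not a level of hemocytes. The part of tissue make-up in the values of the transferrin receptor and iron-sulfur unigenes was not tested.

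The authors' deposited table gave a false discovery rate of at most 0.05 for 6 of the 10 members, against 7.98% of its 65535 unigenes. Of those 65535 only 44982 reached 1 RPKM, whereas all 10 members did, so these shares are over unlike sets. In the authors' deposited table the rate was 1.28e-05 for ISCU, 0.00288 for HscB, 0.00986 for frataxin, 0.0208 for ferritin, 0.00675 for Contig36952 and 0.0210 for Contig32350. Contig25138 had 0.116 and Contig5299 had 0.289 in the authors' deposited table, although their read ratios were larger than that of ferritin. Both ferrochelatases had 1 there. These rates rest on 1 library per state.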

How the data were processed

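RNA with poly(A) tails from midguts was extracted with Trizol and turned into TruSeq libraries, as the labels' protocols state. The submitters' processing notes name CASAVA 1.8. The sources used here do not name an assembler, aligner or counter. The authors deposited read counts per unigene and RPKM values, per the file headers. Counts divided by RPKM and length gave implied totals of 41432770 reads (FE) and 50397332 (PE), on which intervals rest. The authors also deposited the PE/FE ratio of each unigene with its p-value and its false discovery rate, from a test that is not named, and the percent identity of each Nr, UniProt and KOG hit, per the file headers.

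Ratios of FE over PE were computed from these values with exact conditional binomial (Clopper-Pearson) intervals (Python 3.11.15, scipy 1.17.1). A pseudocount of 1 RPKM was added before taking log2, which understates the change of low unigenes. The floor of 3 reads at 1 kilobase was 0.0724 RPKM in FE and 0.0595 RPKM in PE. TMM factors came from edgeR 4.0.16 and size factors from DESeq2 1.42.0, for scaling only, since 1 library per state allows no test. The rule was tested on simulated data. Alternatives were the pseudocount, filter, scaling, threshold, interval and source of descriptions.

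Members were named if they averaged 10 RPKM or more and, in each role, if they were the most abundant or had the highest or lowest ratio. Contig5299 was added so that all 10 are given. Related genes followed the same rule among called ones. The members and lists were chosen with earlier results of these data known. No unigene or protein sequences were used here.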

Additional observations from a re-analysis of the deposited data

How the results depend on the processing

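With 1 library per state no replicate could be left out, and depth limits mainly the transferrin receptor unigenes, which had 4 to 46 reads in PE. No member changed sign under another pseudocount, filter or scaling. The count of members higher in FE was 6 under most settings, 5 with a TMM factor, with DESeq2 size factors and with a 3-fold threshold, 8 with a 1.5-fold threshold and 3 with 1 unigene per protein hit (of 6 members). The count lower in FE was 0 throughout except 1, the ferritin, with a 1.5-fold threshold. UniProt descriptions first gave 7 of 13, of which 12 reached 1 RPKM, and tick or mite hits only gave 5 of 8. Among the 13 was Contig15223, which matched by accident through the word "transferring" and was called neither. The 7 took in Contig7349, named transferrin 2, and Contig36138, a cytochrome P450 by the Nr hit with 1 read in PE. The shares of all unigenes higher and lower were 18.4% and 16.0% after TMM scaling and 18.5% and 15.9% with DESeq2 size factors. They were 40.5% and 18.6% at the 1.5-fold threshold, and 11.8% and 5.26% at the 3-fold threshold. With a pseudocount of 0.1 they were 34.7% and 15.7%, and with a pseudocount of 5 they were 10.5% and 4.57%. Without a filter they were 17.6% and 7.62%, and with a filter at 5 RPKM 32.3% and 13.5%. With 1 unigene per protein hit they were 24.7% and 11.1%. The median of the members minus that of all unigenes was 1.20, and it was 0.96 with a pseudocount of 5, 1.34 without a filter, 0.77 with 1 unigene per protein hit, 0.83 with UniProt descriptions first and 1.76 with tick or mite hits only. Related genes called higher were 8, or 12 with a 1.5-fold threshold, 9 with a pseudocount of 0.1, 7 with a filter at 5 RPKM, 5 with a pseudocount of 5, 3 with a TMM factor or DESeq2 size factors and 1 with a 3-fold threshold. Those called lower were 2, or 3 with a pseudocount of 0.1, 5 with either scaling, 7 with a 1.5-fold threshold and 1 with a 3-fold threshold. Apart from the fewer unigenes that a stricter threshold lets through, the cause was not tested.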

Other observations

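Unigenes outside the module bear on iron; they were picked with their values known. The 4 unigenes described as zinc/iron transporters, metal importers of the cell surface, split: Contig12100 had 54.3 RPKM in FE and 237 RPKM in PE, with an FE/PE ratio of 0.229 (0.217 to 0.241), First_Contig1500 had 32.8 RPKM in FE and 151 RPKM in PE, and Contig20142 had 35.0 RPKM in FE and 123 RPKM in PE. These 3 were called lower in FE, against 11.1% of all unigenes, and also with a TMM factor, against 16.0%. Contig8737 had 30.4 RPKM in FE and 13.6 RPKM in PE and was called higher, but not after TMM scaling.

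UniProt names gave further candidates where the Nr hit was uninformative or differed. Contig7349, named transferrin 2, had 13.5 RPKM in FE and 4.87 RPKM in PE, 2.77-fold higher in FE (2.58 to 2.97). After TMM scaling its log2 difference was 0.96, short of a call. It was the only unigene besides the ferritin with the GO term cellular iron ion homeostasis. Contig6601, named feline leukemia virus subgroup C receptor-related protein 1 after the mammalian heme exporter, had 23.9 RPKM in FE and 28.1 RPKM in PE and was called neither. The heme-binding aspartic peptidase Contig1301, which the Nr hit names cathepsin D and the rule leaves out, had 193 RPKM in FE and 65.8 RPKM in PE, 2.93-fold higher in FE (2.84 to 3.03), also with a TMM factor. The 2 unigenes named heme binding protein, Contig36138 and Contig56944, are cytochrome P450s by the Nr hit and had 1 read each in PE. Contig2224 and Contig5090, cytoplasmic aconitate hydratases by the Nr hit, are named RNA-binding translational regulator irp (iron regulatory protein) in UniProt. Contig5090 had 98.8 RPKM in FE and 73.2 RPKM in PE and, like Contig2224, was called neither.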
